A study of Homo sapiens with 2 samples.

Results

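A549 cells, an established line of lung adenocarcinoma epithelium, were profiled by single-cell RNA sequencing, and 943 of 3836 kept cells belonged to the class described here: cells rich in transcripts of mitosis that held little of the nuclear RNA NEAT1. A cell was kept with at least 1000 unique molecular identifiers (UMIs, each standing for 1 captured RNA molecule), at least 500 genes and at most 20% of UMIs from mitochondrial genes. The UMIs of 7 mitotic genes (TOP2A, CCNB1, CDC20, PLK1, AURKA, HMMR and KIF23) were summed per 10000 UMIs of the cell, and a member had a sum in the top 25% of all kept cells, which meant at least 24.1, together with fewer than 10 NEAT1 UMIs per 10000. These 8 genes chose the members, so their levels are given as a description.

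The control group was 1 library of A549 cells from ordinary 2D culture. The squashed group was 1 library of A549 cells that had been confined under micropillars of PDMS, a silicone elastomer, and it carries the same batch label as the control. After 48 hours of recovery cells of both groups were sorted alive for loss of a chromosome reporter, so the control is not an unselected culture. The labels do not name the tagged chromosome. The study asks whether past confinement leaves such cells with an altered program of division. As each group is 1 library, replicate spread is unknown and nothing was tested. Intervals are 95%, exact (Clopper-Pearson), and reflect counting error alone.

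Before division a cell in the G2 phase builds up transcripts for the spindle, the kinetochores and the cyclin-dependent kinase that drives entry into mitosis. Many of these genes share promoter elements, the cell cycle genes homology region (CHR) and the CCAAT box. Through the CHR the DREAM complex holds them silent early in the cycle, and B-MYB and FOXM1 complexes activate them later. NEAT1 is a long non-coding RNA that stays in the nucleus and is the scaffold of paraspeckles. Transcripts alone do not separate G2 from mitosis, so the members are called mitotic only as far as the rule goes.

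The CHR (TTTGAA or TTCGAA on either strand) and the CCAAT box (CCAAT on either strand) were looked for in the 250 bases before the start of each gene, and 6 promoters are shown because they carry both and belong to genes by which members stood out. Sequences are from RefSeq on GRCh38.p14, cover the last 130 bases before the start and read 5′ to 3′ on the strand of the gene, with matches to either motif in capitals. PLK1, HMMR and KIF23 are genes of the rule. CKS2, GTSE1 and DEPDC1 are not.
PLK1 (chr16:23678759-23678888, plus strand): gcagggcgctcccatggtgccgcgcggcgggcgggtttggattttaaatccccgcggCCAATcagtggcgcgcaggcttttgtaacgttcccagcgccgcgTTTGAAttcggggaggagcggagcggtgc
HMMR (chr5:163460502-163460631, plus strand): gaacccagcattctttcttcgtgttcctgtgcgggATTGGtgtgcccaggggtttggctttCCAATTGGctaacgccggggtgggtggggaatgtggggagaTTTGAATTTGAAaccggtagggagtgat
KIF23 (chr15:69414219-69414348, plus strand): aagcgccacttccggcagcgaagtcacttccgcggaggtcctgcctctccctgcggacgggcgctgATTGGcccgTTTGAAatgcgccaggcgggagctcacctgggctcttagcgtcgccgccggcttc
CKS2 (chr9:89311065-89311194, plus strand): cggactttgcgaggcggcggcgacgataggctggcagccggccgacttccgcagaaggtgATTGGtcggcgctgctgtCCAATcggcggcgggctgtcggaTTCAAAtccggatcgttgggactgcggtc
GTSE1 (chr22:46296740-46296869, plus strand): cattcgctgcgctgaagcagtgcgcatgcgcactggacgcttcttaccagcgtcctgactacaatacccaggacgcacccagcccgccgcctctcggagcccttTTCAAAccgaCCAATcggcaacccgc
DEPDC1 (chr1:68497083-68497212, minus strand): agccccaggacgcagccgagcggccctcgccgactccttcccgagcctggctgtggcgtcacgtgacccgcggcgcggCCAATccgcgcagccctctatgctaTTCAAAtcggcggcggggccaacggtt
Among genes at least 2-fold higher in members, matches were more frequent than among all measured genes. A CHR was present in 5 of the 6 rule-gene promoters in the table, in 33.9% (56 of 165) of the promoters of the other genes that were at least 2-fold higher in members in both libraries, and in 11.2% (387 of 3466) of the promoters of all measured genes. Genes at least 2-fold lower in members had a CHR in 6 of 30 promoters and a CCAAT box in 13 of 30. With so few promoters, no difference between the lower genes and all measured genes is read from these counts. The CHR share over all 27305 promoters of the table was 14.6%. A CCAAT box was present in all 6 rule-gene promoters, in 59.4% of those of the other higher genes, in 37.5% of those of all measured genes and in 33.0% of all promoters. Both motifs were present in 5 of 6 rule-gene promoters and in 28.5% (47 of 165) of those of the other higher genes. The share was 5.31% (184 of 3466) over all measured genes, and 2 of 30 promoters of the lower genes had both. The promoters shown are thus not typical of the higher genes. BUB1, CENPE, KIF14, KIFC1, NCAPH and NEK2, also among the highest, had no CHR match, and CENPE had neither motif. A match is a run of letters and not a site shown to be bound.

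In the control library 556 of 1906 kept cells were members (29.2%, 27.1 to 31.3), and in the squashed library 387 of 1930 (20.1%, 18.3 to 21.9). The share depended on depth. Among cells with at least 10000 UMIs the shares were 32.7% (30.03 to 35.4) and 29.0% (26.1 to 32.1), whereas among cells of 2000 to under 10000 UMIs they were 23.6% (20.4 to 27.1) and 10.05% (8.14 to 12.2). Below 2000 UMIs they were 21.0% and 24.3%, and there 3 UMIs of the 7 genes could suffice, which was the lowest number seen in a member. With the top 25% taken within each library the shares were 24.7% and 24.4% by construction. The filter removed 668 control and 1202 squashed barcodes, of which 56 and 58 met both thresholds.

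By median depth the members lay above the pooled other cells and below the cells rich in NEAT1 with a low sum. The members' median was 13279 UMIs and 2947 genes in the control and 13643 UMIs and 2968 genes in the squashed library. The other cells had 12046 and 8729 UMIs, and those rich in NEAT1 with a low sum 19816 and 21712 UMIs. Under 2000 UMIs were 3.06% and 9.30% of members, against 4.74% and 7.26% of the other cells. In all the members held 8043984 and 5836080 UMIs. Their mitochondrial share had a median of 4.90% and 6.20%, and ribosomal protein genes took a median of 28.8% and 30.04%. A doublet caller marked 1 member in each library, and of the 4 barcodes that both libraries share none was a member. Markers of other cell types were near 0: the 7 fibroblast markers summed to 5.59 CPM (UMIs scaled to a common total for each class and library) in control and 5.997 CPM in squashed members with 3 of 7 at 0 in both, and the 8 immune markers to 8.70 and 12.3 CPM with 5 at 0. The 7 endothelial markers summed to 48.7 and 13.7 CPM with 5 at 0, of which EGFL7, a secreted factor, gave 45.7 and 9.77 CPM.

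The 7 genes of the rule were mostly present together. All 7 had a UMI in 59.9% of control and 53.7% of squashed members, and at least 5 had one in 94.2% and 83.5%. CCNB1, the cyclin that switches on CDK1, was the most widespread, with a UMI in 99.3% of control members (98.2 to 99.8) and 96.1% of squashed members (93.7 to 97.8). KIF23, a motor of the central spindle, was found in 80.2% and 77.8%, and PLK1, the kinase of mitotic entry and spindle assembly, in 80.9% (77.4 to 84.1) and 70.8% (66.0 to 75.3). UMIs of these genes were found outside the members too, and free RNA in the droplets, which was not estimated, may give some of them. In cells with a lower sum and as little NEAT1, CCNB1 had a UMI in 61.97% and 45.6%, and in cells rich in NEAT1 with a low sum, which were deeper, in 28.2% and 37.4%.

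The boundary cut through a continuum. The median sum was 29.8 (control members) and 31.1 (squashed members), and the highest sums were 90.4 and 71.0, and 399 cells lay within 10% of the threshold. In the unit interval just under it there were 52 control and 24 squashed cells, with medians of 2564 and 2221 genes, and just over it 59 and 39 cells, with 2543 and 2268 genes. The NEAT1 clause did little: of 959 cells above the threshold it removed 16, namely 6 control and 10 squashed cells. Cells rich in NEAT1 nearly all had a low sum, as the plot of the mitotic sum against NEAT1 shows.

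**Figure D1:**
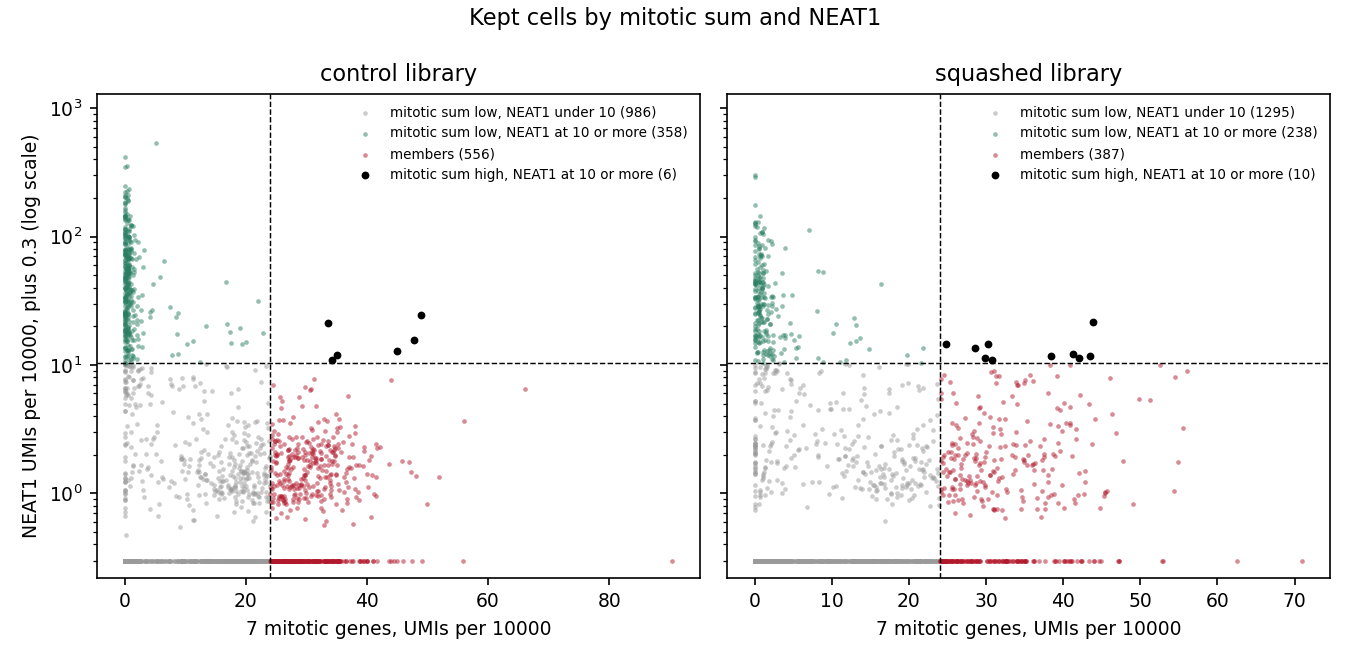
Each point is a kept cell, with the UMIs of the 7 mitotic genes per 10000 on the x axis and NEAT1 UMIs per 10000 plus 0.3 on a log y axis; dashed lines are the thresholds of the rule. Members fill the lower right (556 control, 387 squashed), and only 6 and 10 cells lie above the NEAT1 line to the right of the sum's threshold.

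NEAT1 itself (ENSG00000245532) was low in members and in most other cells. Its median in members was 0.60 per 10000 in the control and 0.73 in the squashed library, the 90th percentile was 2.14 and 4.31, and 44.2% and 37.7% of members had no NEAT1 UMI at all. Between 5 and 10 per 10000 lay 10 control members (1.80%) and 31 squashed members (8.01%). In summed counts members stood at 106 and 187 CPM against 2235 and 1174 CPM in all other cells. That gap came from the cells chosen for high NEAT1, at 5464 and 3520 CPM, since cells with a low sum and NEAT1 under 10 stood at 159 and 130 CPM. Low NEAT1 was thus shared by members and by the largest class of other cells, 986 control and 1295 squashed cells.

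MALAT1, another abundant nuclear RNA and not part of the rule, followed a different order. Control members held 3567 CPM and squashed members 7143 CPM, cells rich in NEAT1 with a low sum 27248 and 30250 CPM, and cells low in both 2762 and 2944 CPM. Members lay above the cells low in both in each library, and far below the cells rich in NEAT1. Members were also split into 4 bands at the quartiles of the sum over both libraries together. The bands held 142, 156, 150 and 108 control members and 94, 79, 86 and 128 squashed members. MALAT1 was higher in each band than in the one before, from 2805 to 4671 CPM (control) and from 4840 to 8783 CPM (squashed).

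Outside the rule, members were set against the other kept cells of their own library as the log2 ratio of CPM, over genes with at least 20 CPM in either of the sums compared, called measured. Of 4226 genes measured in both libraries, 208 were at least 2-fold higher in members in both (4.92%), and 43 were at least 2-fold lower (1.02%). Both counts were smaller with a stricter filter on cells, and their values by setting are given at the end. The median ratio of all measured genes was 0.26 in the control and 0.38 in the squashed library, so a small positive ratio was common. With TMM scaling, which trims extreme genes before setting the scale, these medians were 0.25 and 0.09. Because members were picked by 7 mitotic genes, genes that vary with them were bound to follow, and the counts describe which ones did.

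Kinetochore and spindle checkpoint genes followed most fully. Of 22 measured genes 21 were at least 2-fold higher in both libraries, against 4.92% of all genes, and the median ratio was 1.68 in the control and 1.99 in the squashed library. The checkpoint kinase BUB1 stood at 86.3 CPM in control members against 24.1 CPM in other cells and at 90.6 against 21.8 CPM in the squashed library (log2 ratios 1.84, 1.67 to 2.01, and 2.05, 1.86 to 2.25). CENPE, the kinetochore motor, stood at 101 and 105 CPM in members against 26.5 and 21.5 CPM in other cells. TTK, the kinase at the head of the checkpoint, had ratios of 2.07 and 2.43, and NDC80, which grips microtubules, 1.83 and 2.09. Levels of these genes in members were nearly the same in the libraries, whose members had passed the same threshold on the sum.

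Spindle proteins and motors came next, with 17 of 19 measured genes at least 2-fold higher and medians of 1.64 and 1.94. KIFC1, which bundles spindle microtubules, was 3.85-fold higher in the control (52.0 against 13.5 CPM) and 4.69-fold higher in the squashed library (54.5 against 11.6 CPM). KIF11, the motor that pushes the poles apart, had ratios of 1.78 and 2.14, and DLGAP5, a microtubule-binding protein of the spindle, 1.79 and 2.04. Of 9 measured tubulins 4 were at least 2-fold higher. Among these TUBB4B stood at 1291 and 1312 CPM in members against 357 and 372 CPM in other cells, whereas TUBA1A had ratios of -0.02 and -0.52.

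Genes of cytokinesis, the splitting of the cell body, were at least 2-fold higher for 9 of 12 measured members. KIF14, a motor needed at the midbody, had the largest smaller ratio of any gene named outside the rule: it stood at 63.8 and 64.8 CPM in members against 14.4 and 11.0 CPM in other cells (4.44-fold and 5.89-fold). CEP55, which organises the final cut, was 3.57-fold and 4.43-fold higher, and RACGAP1, the partner of KIF23, had ratios of 1.66 and 2.19. Condensin, cohesin and chromosome surface genes were at least 2-fold higher for 9 of 14, led by the condensin subunit NCAPH (1.95 and 1.90), while MKI67, which coats mitotic chromosomes, reached 1.70 and 2.28. The other highest genes were the centrosome kinase NEK2 (1.89 and 2.29), GTSE1 (1.86 and 2.34), CKS2 (1.86 and 1.91) and DEPDC1 (1.84 and 2.18).

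Of 11 measured genes of mitotic entry 7 were at least 2-fold higher. The cyclin CCNA2 had ratios of 2.03 and 2.65, CCNB2 of 1.67 and 1.75, and CKS2, a small protein that binds the kinase, was the most abundant at 1282 and 998 CPM. CDK1, the kinase itself, had 0.95 (0.73 to 1.17) in the control and 1.88 (1.70 to 2.06) in the squashed library, but 20 control and 37 squashed members, those richest in it, held 76.1% and 82.9% of its UMIs. The other members stood at 10.2 and 20.2 CPM. Cells outside the class stood at 20.5 and 26.1 CPM, but there the cells richest in CDK1 had not been set aside. Genes of the anaphase-promoting complex and mitotic exit were split. The conjugating enzyme UBE2C (1.83 and 2.58), the second one UBE2S (1.29 and 1.42) and the securin PTTG1 (1.35 and 1.25) were at least 2-fold higher, and the other 10 of 13 measured genes, mostly subunits of the complex, were not, although all 13 had a ratio above 0.

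**Figure D2:**
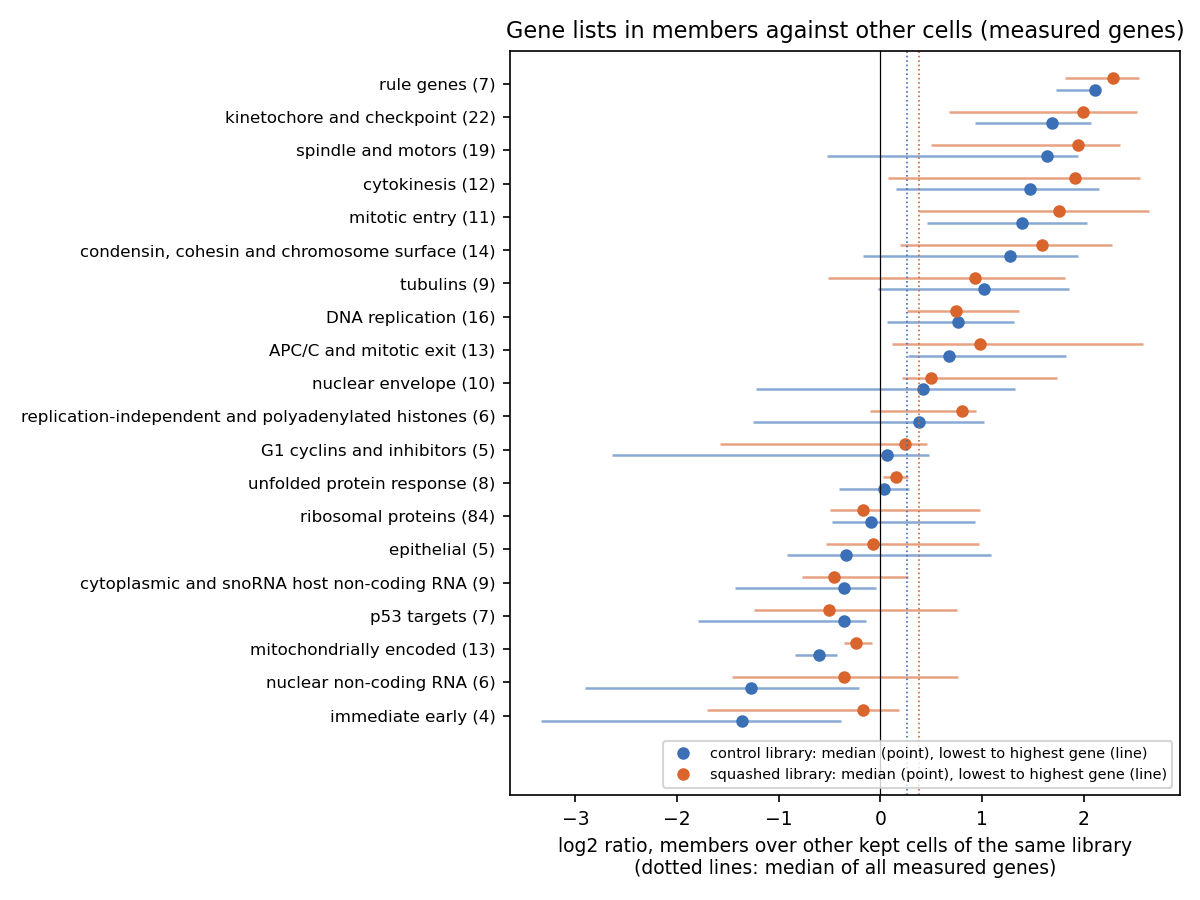
For each gene list with at least 3 measured genes, the point is the median log2 ratio of members over other kept cells of the same library and the line runs from the lowest to the highest gene; dotted lines mark the median of all measured genes (0.26 and 0.38). Lists of division lie at the right, and nuclear non-coding RNA, immediate early and mitochondrial genes at the left.

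DNA replication genes, which peak before mitosis, were higher by less: 2 of 16 measured genes passed 2-fold in both libraries, with medians of 0.77 and 0.75. They were RRM2 (1.31 and 1.27), which makes deoxynucleotides, and UHRF1 (1.25 and 1.36), which keeps DNA methylation at forks. MCM5 of the replicative helicase had ratios of 0.07 and 0.26. Among 10 measured nuclear envelope genes, whose products are taken apart in mitosis, 3 passed: LBR (1.21 and 1.74), LMNB2 (1.18 and 1.52) and TMPO (1.33 and 1.57). LMNA, the lamin of differentiated cells, had 0.13 and 0.27.

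The genes lowest in members were of other kinds. FN1, the matrix protein fibronectin, stood at 15.8 CPM in control and 28.3 CPM in squashed members against 213 and 101 CPM in other cells (log2 ratios -3.75, -4.02 to -3.50, and -1.83, -2.07 to -1.60). CDKN1A, the inhibitor of cyclin-dependent kinases that p53 induces, stood at 13.2 and 38.4 CPM against 82.7 and 115 CPM (-2.64 and -1.57). PAPPA, a secreted protease of growth factor binding proteins, had -2.69 and -1.60, the non-coding SNHG14 -2.63 and -1.32, PLAAT4 -2.34 and -1.69 and the secreted LGALS3BP -2.08 and -1.68. ANXA4, LXN, the lysosomal GRN and the linker histone gene HIST1H1C lay between -1.63 and -1.13. In all 10 the control ratio lay further below 0 than the squashed ratio, by least for ANXA4 (-1.33 and -1.26).

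The low genes depended on which other cells were counted. Against cells with a low sum and NEAT1 under 10, 140 of 4057 measured genes were at least 2-fold higher in members in both libraries (3.45%) and only 6 were at least 2-fold lower (0.148%). FN1, at 44.2 and 34.6 CPM in those cells, was not among the 6, whereas PLAAT4 (-1.53 and -1.34) and LGALS3BP (-1.27 and -1.36) were. GAS5, a non-coding RNA that hosts small nucleolar RNAs and rises when growth stops, stood at 323 and 271 CPM in members against 615 and 502 CPM. Of 8 measured RNAs of this kind all 8 had ratios below 0 in both libraries (medians -0.67 and -0.60), and of 84 ribosomal protein genes 78 in the control and 75 in the squashed library did (medians -0.25 and -0.31). Against these cells 15 of 22 kinetochore, 16 of 19 spindle, 9 of 12 cytokinesis, 8 of 14 condensin and cohesin and 6 of 11 mitotic entry genes were at least 2-fold higher, but 2 of 9 tubulins, 1 of 13 genes of the anaphase-promoting complex and exit and 0 of 16 replication genes. Among single genes KIF14 was higher by 1.86 and 2.37, ASPM, which focuses spindle poles, by 1.67 and 2.54, and the nuclear import factor KPNA2 by 1.57 and 1.96.

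Nuclear non-coding RNA as a list showed how the choice of comparison matters. Against all other cells the 6 measured genes had medians of -1.27 in the control and -0.36 in the squashed library. Of them 0 were at least 2-fold higher and 2 at least 2-fold lower, where 4.92% and 1.02% of all measured genes were. The 2 were the imprinted KCNQ1OT1 (-2.91 and -1.46) and FTX (-2.72 and -1.45) of the X inactivation centre. Against cells low in both the list medians were 0.11 and 0.56 over 3 measured genes. With the stricter filter on cells the control median was 0.07.

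The levels of division genes rose with the sum without a step at the threshold. Kinetochore genes summed to 597 and 575 CPM in cells of the lowest sums with NEAT1 under 10, to 2223 and 2241 CPM in cells between 11.2 and 24.1, and from 2715 to 3477 CPM over the 4 bands of control members and from 2733 to 3747 CPM over those of squashed members. Condensin and cohesin genes went from 1496 to 2055 CPM and from 1518 to 2189 CPM over the same bands. Replication genes stayed between 1069 and 1285 CPM in all 4 bands of both libraries. GAS5 stood at 833 and 600 CPM in the lowest band and at 408 and 324 CPM in cells between 11.2 and 24.1. In the first band of members it stood at 298 and 256 CPM, and in all 4 between 256 and 361 CPM. The number of genes per cell grew as well, from medians of 1464 and 1305 in the lowest band to 3130 and 3170 in the top band, and its part in these trends was not tested.

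**Figure D3:**
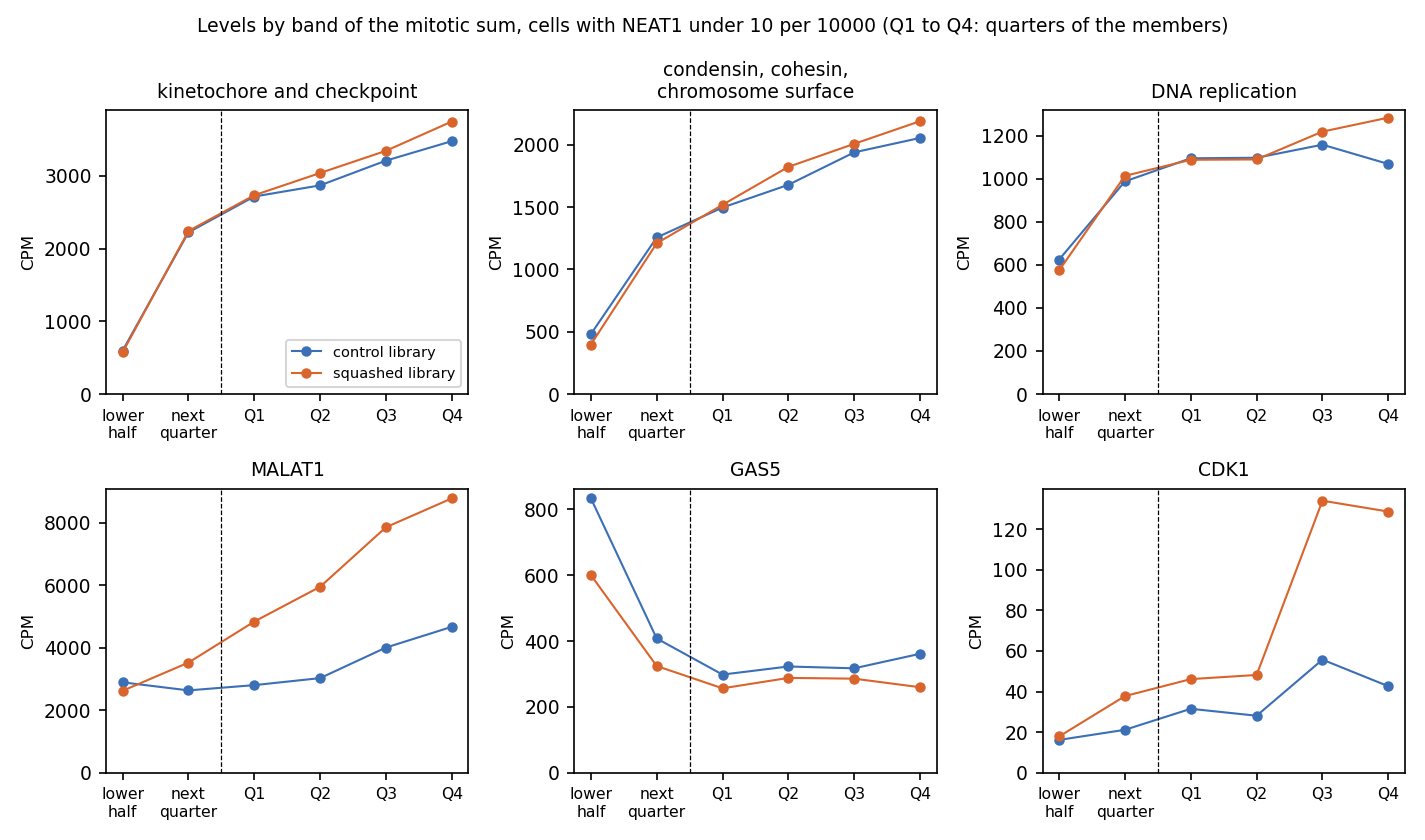
CPM on the y axis against bands of the mitotic sum on the x axis, for cells with NEAT1 under 10 per 10000: cells under 11.2, cells up to 24.1 and the 4 bands of members (Q1 to Q4) to the right of the dashed line, for the control (blue) and squashed (orange) library. Kinetochore and condensin genes climb through the threshold, and most of the fall in GAS5 comes before it. MALAT1 and CDK1 are higher in the squashed library in the members and also in the band just under the threshold.

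A minority of the members stood apart by CDK1. CDK1 (ENSG00000170312) had no UMI in 478 of 556 control and 279 of 387 squashed members, and 10 cells held 55.0% and 40.3% of its UMIs. Members with at least 2 CDK1 UMIs and at least 2 per 10000, a division made after these values had been seen, numbered 20 in the control (3.60% of members, 2.21 to 5.50) and 37 in the squashed library (9.56%, 6.82 to 12.9). They held 76.1% and 82.9% of the CDK1 UMIs of all members. Of them 6 and 12 lay between 2 and 3 per 10000, and 9 and 13 members between 1 and 2, so the line was not drawn through an empty range.

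The requirement of at least 2 CDK1 UMIs favours deep cells. The CDK1-high members had medians of 31489 and 29677 UMIs against 13064 and 12992 UMIs in the other members, and 18 of 20 and 32 of 37 had at least 20000 UMIs. Most deep members were not CDK1-high: of 89 control and 111 squashed members with at least 20000 UMIs, 18 (20.2%, 12.4 to 30.1) and 32 (28.8%, 20.6 to 38.2) were CDK1-high, and 56 and 54 had no CDK1 UMI. Their mitochondrial share was higher, with medians of 15.2% and 11.2% against 4.80% and 5.75%, and 18 of 20 and 29 of 37 exceeded 10%, against 8.21% and 19.4% of the other members. Sums of the 7 genes were close, with medians of 30.8 and 33.9 against 29.8 and 30.9. No CDK1-high member was called a doublet.

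**Figure D4:**
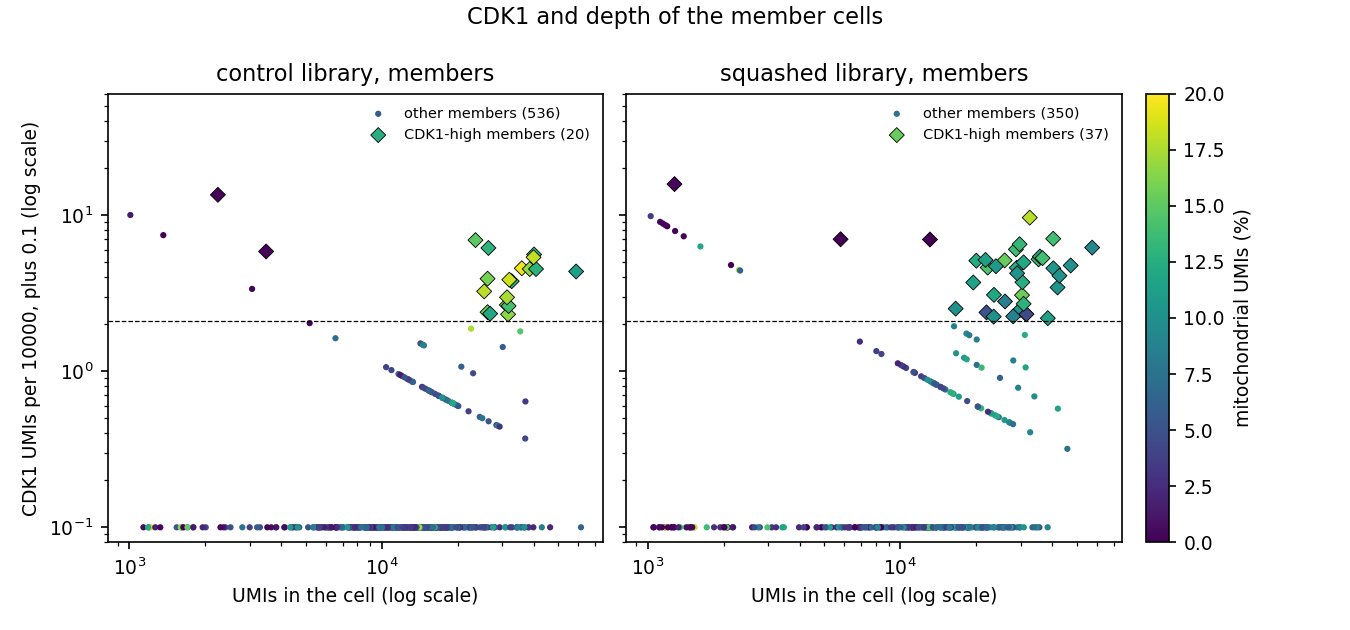
Each point is a member, with its UMIs on a log x axis, CDK1 UMIs per 10000 plus 0.1 on a log y axis and its mitochondrial share as colour; diamonds are the CDK1-high members (20 control, 37 squashed) and the dashed line is at 2 per 10000. Most diamonds lie at the right, with 18 and 32 of them at 20000 UMIs or more, and the bottom row holds the 478 and 279 members with no CDK1 UMI.

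Histone genes of S phase were higher in many of the same cells. HIST1H4C (ENSG00000197061), an H4 gene, stood at 1543 and 2333 CPM in CDK1-high members against 28.2 and 73.9 CPM in the other members (log2 ratios 5.77, 5.55 to 5.995, and 4.98, 4.82 to 5.15), and HIST1H1D, a linker histone gene, at 95.8 and 85.8 CPM against 2.69 and 3.57 CPM. The 20 and 37 cells held 81.6% and 87.7% of all HIST1H4C UMIs of members. At 5 per 10000 or more HIST1H4C was found in 12 of 20 and 26 of 37 of them and in 5 and 17 other members. Outside the class 15 control and 27 squashed cells low in both the sum and NEAT1 were CDK1-high, and 13 and 17 of these had HIST1H4C at that level. Of 2310 genes with at least 50 CPM in either sum in both libraries, 62 were at least 2-fold higher in CDK1-high members (2.68%) and 13 at least 2-fold lower (0.563%). CDK1 chose the cells and is no result here.

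The other genes highest in CDK1-high members were of several kinds. The growth brake BTG1 had ratios of 2.73 and 2.63, the chromatin genes KANSL1 3.95 and 2.54, KDM5B 3.68 and 2.15 and ARID1A 2.21 and 1.94, and the lung epithelial factor FOXA2 3.04 and 2.099. UBE2C had 2.17 and 1.75 and CENPF, a kinetochore protein, stood at 1323 and 1024 CPM against 335 and 485 CPM. Nuclear RNA was higher too: MALAT1 stood at 10318 and 14433 CPM against 3018 and 5501 CPM, NEAT1 at 307 and 401 CPM against 89.8 and 139 CPM, and KCNQ1OT1 at 74.3 and 44.7 CPM against 1.61 and 2.94 CPM. The rule genes were split, and CCNB1 stood at 484 and 448 CPM against 937 and 856 CPM. Also lower in both libraries were CDC20 (195 and 155 against 299 and 226 CPM), AURKA (340 and 401 against 499 and 461 CPM) and HMMR (202 and 188 against 293 and 285 CPM). TOP2A, KIF23 and PLK1 were higher in both, PLK1 by little in the control (178 against 170 CPM). Lower genes included NPM1, a nucleolar protein (-1.14 and -1.08), VDAC1 of the mitochondrial outer membrane (-1.08 and -1.20) and the ribosomal protein paralog RPL26L1 (-1.52 and -1.24).

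The few cells above both thresholds resembled the CDK1-high members in these genes. The 6 control and 10 squashed cells with a high sum and NEAT1 at 10 or more had median depths of 32345.5 and 19137 UMIs and 15.2% and 11.2% mitochondrial UMIs, and 3 of 6 and 4 of 10 were CDK1-high by the same rule. They held 317 and 260 CPM of CDK1 and 1490 and 1973 CPM of HIST1H4C. Of 4751 measured genes, 363 were lower in members than in these cells by 2-fold or more in both libraries (7.64%), and 81 were higher (1.70%), counts that rest on 16 cells. With TMM scaling the balance turned, to 196 lower and 283 higher. Among the lower ones were FN1 (-3.83 and -4.01), KCNQ1OT1 (-3.06 and -2.37) and the immediate early gene FOS (-4.26 and -2.82).

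Of 4643 measured genes 65 were at least 2-fold higher in squashed members (1.40%) and 193 at least 2-fold lower (4.16%), where the other cells had 49 (1.17%) and 242 (5.78%) of 4187. With cells thinned to 2000 UMIs the counts in members were 182 higher and 268 lower. The median of all genes was -0.01 in members and -0.17 in the other cells. The ratios compare 2 libraries, and what belongs to the library and what to the confinement cannot be told apart.

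Most division genes differed by less than 2-fold between the libraries, where 1.40% of all genes were higher and 4.16% lower. None of 24 measured kinetochore genes, 19 spindle genes, 12 cytokinesis genes, 15 condensin and cohesin genes or 16 replication genes differed by 2-fold in members, and their medians were 0.08, 0.13, 0.05, 0.07 and 0.15. Members of both libraries had passed the same threshold, so genes that vary with the sum were in part held alike by the selection. In the other cells the medians of these lists were -0.15, -0.22, -0.20, -0.28 and 0.10. Over the lists the lowest ratio in members was that of the microtubule-binding TACC3 (-0.47), and the highest that of the cohesin subunit STAG1 (0.76). KIF11 had -0.42, the checkpoint protein MAD2L1 -0.43 and CENPF 0.51. Of 9 tubulins 2 were at least 2-fold lower, TUBB3 (-1.56) and TUBB6 (-1.02), and of 12 mitotic entry genes 1 was higher, CDK1. Among genes of the anaphase-promoting complex UBE2S was lowest (-0.97, 252 and 129 CPM).

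The makeup of the sum differed between the libraries, while its level was held alike by the common threshold. TOP2A, the topoisomerase that untangles chromosomes, stood at 751 CPM in control and 1253 CPM in squashed members (0.74, 0.69 to 0.79) and made up 24.4% and 38.2% of the sum. Per cell its median was 6.31 per 10000 in the control and 10.6 in the squashed library, with quartiles at 3.17 and 9.06 and at 6.60 and 15.9, so the libraries overlapped broadly. PLK1 was lower, at 171 and 112 CPM (-0.61, -0.74 to -0.47), as were CDC20, the activator of the anaphase-promoting complex, at 291 and 213 CPM (-0.45) and CCNB1 at 903 and 781 CPM (-0.21). AURKA, HMMR and KIF23 lay between -0.11 and 0.05. The shift in makeup was not particular to members. In cells low in both, TOP2A made up 19.3% (control) and 29.1% (squashed) of the sum, and PLK1 6.20% and 3.84%. In cells rich in NEAT1 with a low sum the shares were 41.5% and 55.3% for TOP2A and 4.87% and 3.77% for PLK1. Since these 7 genes chose the members, each was also read in members chosen by the other 6: TOP2A then had 0.74, PLK1 -0.59, CDC20 -0.43 and CCNB1 -0.21.

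CDK1 stood at 39.5 CPM in control and 96.1 CPM in squashed members (1.28, 1.08 to 1.48) and at 20.5 and 26.1 CPM in the other cells (0.35). Among other cells with NEAT1 under 10, CDK1 stood at 21.2 and 37.7 CPM for sums of 11.2 to 24.1. For lower sums it stood at 16.2 and 17.9 CPM. It had a UMI in 14.03% (11.3 to 17.2) and 27.9% (23.5 to 32.7) of members. Median depths were close, but 89 of 556 control and 111 of 387 squashed members had at least 20000 UMIs, and the part of depth in the CDK1 difference was not tested. The CDK1-high cells held most of these UMIs. HIST1H4C stood at 142 and 489 CPM in members (1.78) and at 339 and 510.5 CPM in the other cells (0.59). Without the CDK1-high members it stood at 28.2 and 73.9 CPM in members (1.39, 1.14 to 1.64). The other cells kept their CDK1-high cells.

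MALAT1 was higher in squashed members, and nuclear RNA as a list was not uniform. MALAT1 had a ratio of 1.00 (0.98 to 1.02), with a median per cell of 21.5 per 10000 in the control (quartiles 11.8 and 34.6) and 44.7 in the squashed library (25.4 to 71.9), against -0.13 in the other cells, a value that was 0.53 with the stricter filter. The other cells were a mixture, and those rich in NEAT1 with a low sum were 18.8% of control and 12.3% of squashed kept cells. In that class and in cells low in both, MALAT1 was higher in the squashed library, as given above. Among cells with NEAT1 under 10 it stood at 2637 and 3527 CPM for sums of 11.2 to 24.1. For lower sums it stood at 2895 and 2624 CPM. The part of the mixture in the pooled value was not tested. Without the CDK1-high cells MALAT1 had 0.87 (0.84 to 0.89) in members. NEAT1, part of the rule, had 0.82 in members and -0.93 in the other cells. All 4 measured nuclear non-coding RNAs had ratios above 0 in members, with a median of 0.50, and 1 of them, MALAT1, passed 2-fold. JPX (0.10) was at -0.14 with the stricter filter, and OIP5-AS1 (0.27) at -0.19 when thinned. The 13 mitochondrially encoded genes moved with it: 12 had ratios above 0 in members and 3 passed 2-fold, against 1.40% of all measured genes. Their median was 0.32, against 0.03 in the other cells, and their part was not tested.

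All 3 measured metallothioneins, small proteins that bind zinc and copper, were at least 2-fold higher in squashed members, against 1.40% of all measured genes. MT2A stood at 820 and 2712 CPM (1.73, 1.68 to 1.77), with a median per cell of 6.64 per 10000 in control and 19.2 in squashed members and quartiles of 3.57 and 11.8 and of 11.5 and 32.8. MT1X stood at 63.2 and 331 CPM (2.39), but 10 squashed cells held 49.6% of its UMIs, up to 306 per 10000 in 1 cell, and without the 10 cells richest in it in each library the ratio was 1.59. MT1A was at 9.57 and 37.4 CPM (1.96), and 10 squashed cells held 40.4% of its UMIs. Without the 10 cells richest in it in each library the ratio of MT1A was 1.65. The other cells had 1.29 for MT2A and 1.39 for MT1X.

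Cyclins and inhibitors of G1 differed in both directions. CCND1, the cyclin that growth signals induce, stood at 328 CPM in control and 122 CPM in squashed members (-1.43, -1.55 to -1.31), with a UMI in 89.6% and 66.9% of cells, and had -1.27 in the other cells. CDKN1A stood at 13.2 and 38.4 CPM (1.54, 1.203 to 1.89), with a UMI in 13.1% and 26.9% of members, and had 0.47 in the other cells. The rise was not particular to members. Among other cells with NEAT1 under 10, CDKN1A stood at 13.3 and 35.4 CPM for sums of 11.2 to 24.1. For lower sums it stood at 41.1 and 66.8 CPM. Of 6 measured genes of this list 1 was at least 2-fold higher and 2 lower, where 1.40% and 4.16% of all measured genes were. The second lower one was CDKN1B (-1.06), an inhibitor at 21.5 and 10.3 CPM.

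The largest ratios in members were those of genes outside division. The lowest were MRPL12 of the mitochondrial ribosome, at 128 and 11.7 CPM (-3.44, -3.83 to -3.10), PPDPF at 243 and 26.6 CPM (-3.19), DDT at 193 and 25.02 CPM (-2.94), NDUFAB1 (-2.63), C9orf16 (-2.44), EMC6 (-2.43), AURKAIP1 (-2.32), which binds AURKA, PARL (-2.28), TSPO (-2.24) and DCUN1D5 (-2.20). The other cells had nearly the same values for MRPL12 (-3.62), PPDPF (-3.05) and DDT (-2.91). The highest, besides MT1X, HIST1H4C and MT2A, were SNHG19 (2.49, 14.8 and 83.3 CPM), ATP5ME (1.77), SNHG25 (1.75), RPS29 (1.67), NDUFB1 (1.67), PET100 (1.65) and the imprinted gene PEG10 (1.65). RPS29, MT1X and HIST1H4C have near-identical copies, so counting may have divided their reads and these values are uncertain. KRT18, a keratin of simple epithelium, was lower (-1.41) and its partner KRT8 higher (0.51), as in the other cells (-1.68 and 0.54).

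**Figure D5:**
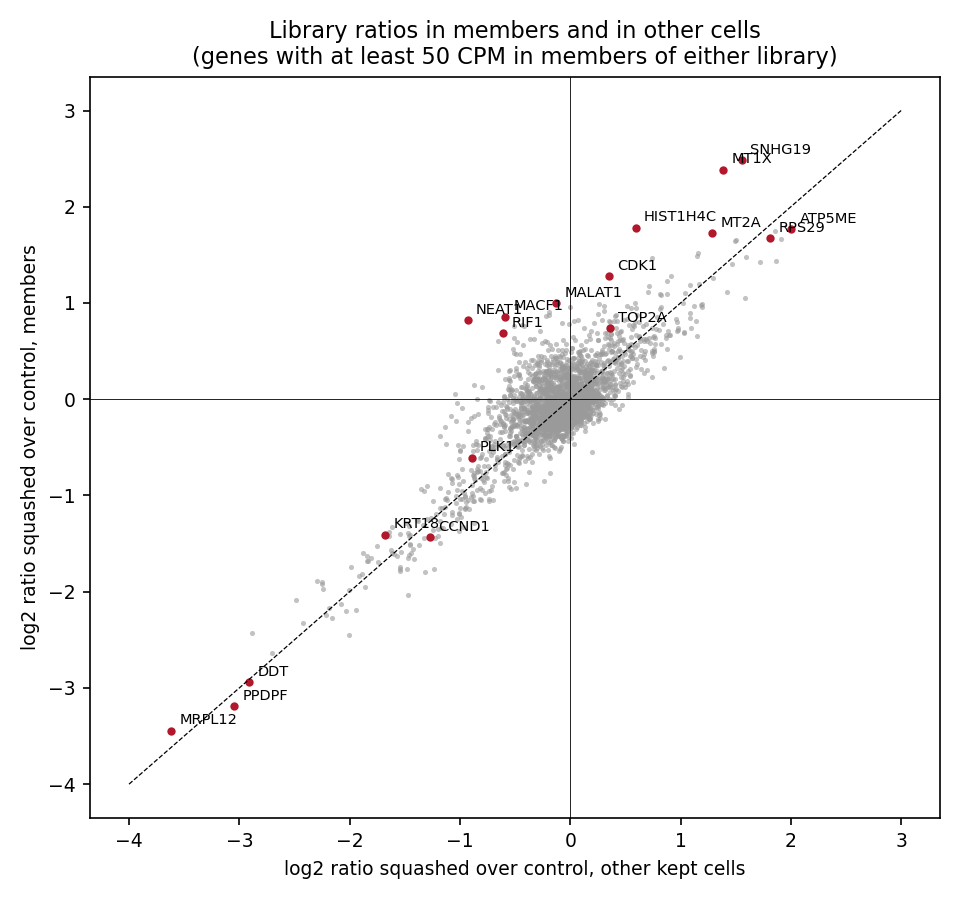
Each point is a gene with at least 50 CPM in members of either library, with its log2 ratio of squashed over control in the other kept cells on the x axis and in members on the y axis; the dashed line marks equal ratios. MRPL12, PPDPF and DDT lie on the line at the lower left, while NEAT1, MACF1, MALAT1, CDK1, HIST1H4C and MT1X lie above it.

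The gap between the ratio in members and in other cells was largest for NEAT1, MACF1, RIF1, DST and ZFP36L1. The rule caps NEAT1 in members and leaves all cells rich in it among the others, so its gap is shaped by the selection. MACF1, which links microtubules to actin, stood at 27.6 and 50.03 CPM in members (0.86, 0.60 to 1.12) and at 66.2 and 44.1 CPM in other cells (-0.59), and DST, a related linker, had 0.76 and -0.51. The largest gaps the other way were those of CSRP1 (-0.55 in members and 0.19 in other cells), SNF8 (-2.04 and -1.47), the copper chaperone ATOX1 (0.44 and 1.00), SH3BGRL3 (-0.10 and 0.44) and SLC3A2 (-1.77 and -1.24). With the stricter filter the ratios of MACF1 and DST in the other cells were 0.32 and 0.39. No test of these gaps was possible with 1 library per group.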

How the data were processed

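Single-cell RNA was measured in 2 libraries of A549 cells, 1 control and 1 squashed, which share a batch per the labels. The authors deposited UMI counts per gene and barcode, made with the 10x Chromium 3.1 kit, a NovaSeq 6000 and Cell Ranger against GRCh38; per the file headers Cell Ranger was version 4.0.0, whereas the series' design text has 5.0.1, and the submitters' processing notes list R 4.3.2. Free RNA in the droplets was not estimated.

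Counts were summed over the cells of a class and library and scaled to CPM by the class total, and 0.5 was added to each count before log2 ratios were taken. A gene at 20 CPM or more counted as measured, and a gene was counted as higher or lower at 2-fold. Intervals are exact Clopper-Pearson at 95% and cover counting error only. Named genes were the 10 highest and 10 lowest of each comparison, the 5 largest gaps on each side, up to 4 per list from 22 lists, all at 50 CPM or more outside lists, and a few always named; genes named for the comparisons with cells low or high in NEAT1 and for the CDK1 division were chosen after their values were seen. The members and lists were chosen with earlier results of these data known. Doublets were called with Scrublet in scanpy 1.11.5 and kept. Alternatives were a stricter cell filter, doublets left out, other NEAT1 and sum thresholds, thinning to 2000 UMIs, TMM scaling (edgeR 4.0.16, R 4.3.3), a mean over cells, 50 CPM and a prior of 2, and, added after seeing the data, shared barcodes left out, deep cells alone and the 10 richest cells left out. Python 3.11.15, numpy 2.4.6, scipy 1.17.1 and pandas 2.3.3 were used, and the ratio step was tested on simulated data.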

Additional observations from a re-analysis of the deposited data

Results flagged for a closer look

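In 4 genes the squashed library was higher than the control by at least 1.5-fold in members and lower by at least 1.5-fold in the other cells. The log2 ratios, members then other cells, were 0.858 and -0.587 for MACF1, 0.82 and -0.929 for NEAT1, 0.685 and -0.611 for RIF1, which acts in DNA replication timing and repair, and 0.6 and -0.658 for the RNA-binding ZFP36L1. These differences were not tested, as each group is 1 library. NEAT1 is part of the rule, which caps it in members. With the stricter filter the other cells were at 0.32 for MACF1 and 0.07 for ZFP36L1, and with cells thinned to 2000 UMIs RIF1 in members was at -0.33. Leaving out the CDK1-high members gave 1.02, 0.63, 0.69 and 0.44 in members for MACF1, NEAT1, RIF1 and ZFP36L1.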

How the results depend on the processing

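The shares, counts, list medians and named genes were recomputed under other settings, the shares under fewer of them. Leaving a rule gene out of the sum was read for that gene alone. The strict filter (at least 2000 UMIs and 1000 genes, at most 10% mitochondrial UMIs) turned the sign of 20 named genes and 2 list medians in control members over other cells. Among them 1 gene past 2-fold, NORAD, went to 0.215, and 1 list median past 1.5-fold, nuclear non-coding RNA, to 0.0695; the others were nearer 0 to begin with. Genes at least 2-fold higher and lower in members than in other cells were 208 and 43; they were 81 and 19 under the strict filter, 127 and 21 with the sum in the top 10%, and 127 and 15 at 50 CPM, and those lower were 66 under TMM scaling and 27 as a mean over cells. Against the cells high in both, the higher and lower counts were 17 and 211 with NEAT1 under 5, 152 and 726 with NEAT1 under 20, 283 and 196 under TMM and 35 and 117 at 50 CPM; the lower count was 572 for the top 10% and 623 when thinned, and the higher count 138 as a mean over cells and 20 with a prior of 2. No such comparison could be made under the strict filter, which left too few of these cells. For squashed over control members the higher and lower counts were 33 and 116 at 50 CPM, and the higher count 182 when thinned. The share of squashed cells that were members was 18.0% under the strict filter; control and squashed shares were 10.3% and 9.12% for the top 10%, 24.7% and 24.4% for the top 25% of each library, and 25.5% and 22.8% in cells of at least 10000 UMIs with the threshold set anew. TMM scaling moved the median of all genes in squashed members over other cells from 0.38 to 0.09. The medians of the kinetochore, spindle, cytokinesis, mitotic entry, condensin and replication lists stayed above 0 in members over other cells under all settings run. Every setting chose members by a high sum of mitotic genes, so genes that vary with the sum were bound to follow. The causes were not tested. No paired analysis was possible because each group is 1 library.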
